A study of Mus musculus with 12 samples.

Results

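Open chromatin that the peak calling of resting host microglia listed and that of the engrafted macrophages did not was followed from untreated brains into brains challenged with lipopolysaccharide (LPS). The set holds 5179 of the 60288 peaks in the merged table of untreated mice (8.59%). A peak was taken when the record of the lists it was merged from named at least 2 CD45.2 lists, those of mice 5 and 6 among them, and no CD45.1 list. The members were thus chosen by peak detection in the untreated CD45.1 and CD45.2 libraries, so their tags in those 6 libraries are given as a description and no test of them is reported. Of the members, 900 were also named by the CD45.2 list of mouse 4.

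The libraries are ATAC-seq profiles, made with a transposase that cuts and tags open DNA, of brain macrophages sorted from wild-type C57BL/6J bone marrow chimeras. Every mouse had been irradiated with 950 cGy and had received donor bone marrow the next day. Both populations of each brain were thus sorted from an irradiated host, but only the host microglia had themselves been irradiated. Origin and irradiation therefore cannot be told apart here. The study states that radiation damage could underlie differences between the populations. It adds that transcriptomes of engrafted cells differed from those of non-irradiated microglia as well. In the study CD45.1 marks cells of the graft and CD45.2 the host microglia. There are 4 groups of 3 libraries, since both populations were profiled from untreated mice 4, 5 and 6 and from mice 1, 2 and 3, which were killed 12 h after 2.5 mg/kg LPS, a bacterial endotoxin. The labels name intervals of 3.5 and 9 months after transplantation without assigning mice to them, and the study's text describes hosts transplanted at a few weeks of age and analysed at the longer interval. The libraries come from sorted pools of cells, so fewer cells with an open site and less opening per cell cannot be told apart.

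Microglia arise from yolk sac progenitors and maintain themselves in the brain, while macrophages that engraft after irradiation derive from haematopoietic stem cells. Both carry the macrophage program set up by the ETS factor PU.1, and microglia add factors such as SALL1, a zinc finger repressor that maintains their identity. Distal ATAC-seq peaks mark enhancers, where PU.1 opens DNA together with partners such as IRF, MAF, MEF2, RUNX, CEBP and AP-1 proteins, and LPS acts through TLR4 to activate NF-kappaB and AP-1.

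The label of the set, peaks detected in host microglia alone, held for less of it than the record of merged lists implies. When the members were overlapped directly with the peak list deposited for each untreated CD45.1 library, 2761 (53.31%) overlapped at least 1 of these lists, and 546 overlapped all 3. The other 2418 members (46.69%) overlapped none. Of these 2418, 333 (13.77%) had a CD45.1 peak within 200 bp, and they had a median CD45.2 to CD45.1 ratio of 1.29 at rest against 4.01 in the remaining 2085. The gap between record and deposited lists was not limited to CD45.1. The record named CD45.2 mouse 4 at 900 members, while 2573 (49.68%) overlapped its own list. In every untreated library, fewer merged peaks named the list than overlapped it. The members are therefore called host-listed peaks here, and the results are given with and without those that a CD45.1 library's own list also holds.

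The sequences of the peaks on which the account turns are shown as the forward strand of mm9. The first 8 lie outside annotated repeats and had more CD45.2 than CD45.1 tags, and the last is a counterexample with as many CD45.1 as CD45.2 tags. They were chosen after the values had been seen, and capitals mark matches to a searched motif.
Sall1 distal, intergenic, chr8:91928289-91928437: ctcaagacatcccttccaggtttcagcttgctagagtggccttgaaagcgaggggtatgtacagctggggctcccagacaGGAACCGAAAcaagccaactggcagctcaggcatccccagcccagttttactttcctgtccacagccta
Sall1 nearer, intergenic, chr8:91706417-91706550: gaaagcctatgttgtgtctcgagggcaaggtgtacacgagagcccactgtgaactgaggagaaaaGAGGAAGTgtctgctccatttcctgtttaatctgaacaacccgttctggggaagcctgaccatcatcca
Klf12, intergenic, chr14:100623509-100623627: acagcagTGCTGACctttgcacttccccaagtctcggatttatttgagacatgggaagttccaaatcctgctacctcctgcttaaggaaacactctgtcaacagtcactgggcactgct
Rxrg, intergenic, chr1:169519263-169519382: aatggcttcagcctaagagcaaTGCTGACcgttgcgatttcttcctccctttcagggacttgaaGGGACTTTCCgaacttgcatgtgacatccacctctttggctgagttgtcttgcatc
Khdrbs3 promoter, chr15:68758722-68758863: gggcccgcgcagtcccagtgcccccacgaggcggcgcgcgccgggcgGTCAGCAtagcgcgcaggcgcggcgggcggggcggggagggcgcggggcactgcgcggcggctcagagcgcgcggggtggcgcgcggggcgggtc
Marco, intergenic, chr1:122346288-122346433: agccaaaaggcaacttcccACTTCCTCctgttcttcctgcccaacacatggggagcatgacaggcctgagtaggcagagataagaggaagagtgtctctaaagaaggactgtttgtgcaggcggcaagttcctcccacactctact
Slc1a3 intron 7, chr15:8592358-8592499: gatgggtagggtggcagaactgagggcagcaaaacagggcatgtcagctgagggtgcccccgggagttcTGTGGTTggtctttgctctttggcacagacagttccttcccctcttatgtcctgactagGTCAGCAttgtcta
Kcnma1 intron 1, chr14:24644280-24644444: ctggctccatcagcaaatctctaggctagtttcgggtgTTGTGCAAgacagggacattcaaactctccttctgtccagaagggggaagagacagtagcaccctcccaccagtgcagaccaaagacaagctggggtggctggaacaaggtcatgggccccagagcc
St3gal6 intron 2, chr16:58502257-58502391: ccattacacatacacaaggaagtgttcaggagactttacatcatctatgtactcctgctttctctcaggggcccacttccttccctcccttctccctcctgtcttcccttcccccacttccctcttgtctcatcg

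In these lines the distal Sall1 peak holds a PU.1-IRF composite element, the nearer Sall1 and the Marco peak hold PU.1 (GAGGAAGT), and the Klf12, Rxrg, Khdrbs3 and Slc1a3 peaks hold the MAF motif TGCTGAC on one or the other strand. The Rxrg peak also holds an NF-kappaB match, the Slc1a3 peak RUNX (TGTGGTT) and the Kcnma1 peak CEBP (TTGNNCAA). No searched motif was found in the St3gal6 window. The Khdrbs3 promoter stands out in base composition, with 85.92% GC against a median of 51% over the members.

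At rest the host-listed peaks were small. Their median was 18, 20.5 and 20.3 normalized tags in CD45.2 mice 4, 5 and 6 and 9.33, 10 and 7.62 in the CD45.1 libraries of these mice. Normalized tags are tags divided by the median-of-ratios size factor of the library. Untreated peaks outside the set had medians of 30.1 to 30.5 in CD45.1 and 27.9 to 28.8 in CD45.2. The median ratio of CD45.2 to CD45.1 was 2.13 (quartiles 1.47 and 3.87), against 1.00 over all untreated peaks. It was 3.37 in the members that no CD45.1 library's own list holds, 1.78 in those that at least 1 such list holds, and 4.19 in the 900 that all 3 CD45.2 lists name. Within mice the median log2 ratio of CD45.1 to CD45.2 was -0.96, -1.0 and -1.35 in mice 4, 5 and 6. In 3674 members the lowest CD45.2 library lay above the highest CD45.1 library, and 167 had as many or more CD45.1 tags. Of these 167, 105 were among the 2418 that no CD45.1 library's own list holds, and 62 among the other 2761.

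**Figure D1:**
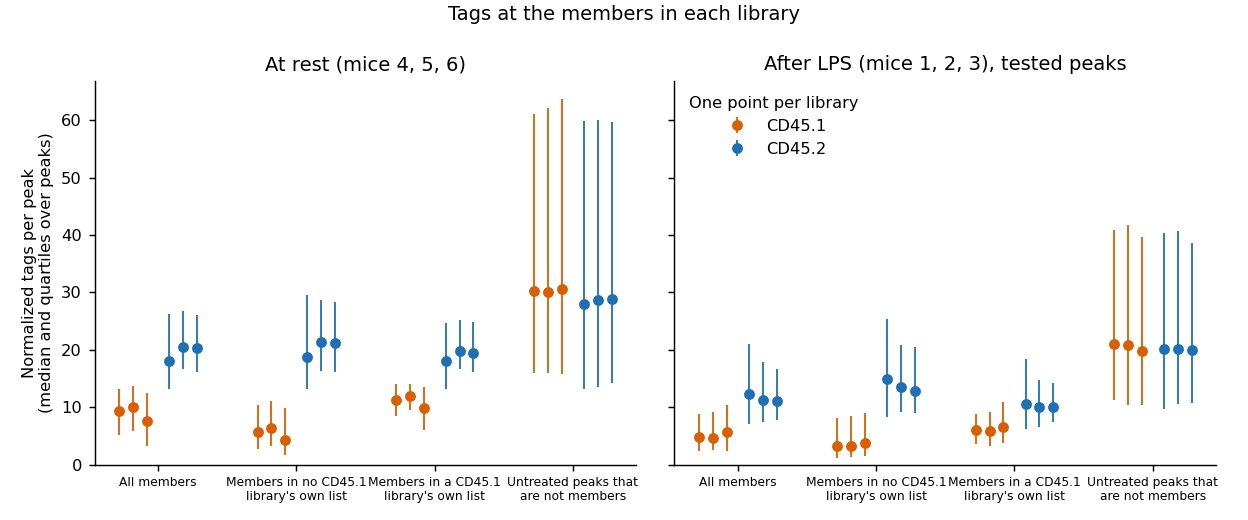
Normalized tags per peak (median, with lines to the quartiles over peaks) in each library at rest and after LPS, for all host-listed peaks, for those in no or in some CD45.1 library's own list, and for the other untreated peaks; orange is CD45.1 and blue CD45.2. At rest the CD45.2 medians of the host-listed peaks are 18 to 20.5 and the CD45.1 medians 7.62 to 10, and after LPS the tested ones keep the same order.

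The edge of the rule cuts through peaks with like values. Just inside it were St3gal6 intron 2 (a sialyltransferase gene) with 132, 141 and 160 CD45.1 and 179, 122 and 127 CD45.2 tags in mice 4, 5 and 6, and the promoter peaks of Lcorl (125, 141 and 138 against 180, 110 and 144) and Hpcal1 (117, 105 and 114 against 128, 97.5 and 104). The populations overlapped at these 3 peaks, though none of the 3 overlapped a CD45.1 library's own list. At the other extreme, 20 members had a mean under 5 CD45.2 tags, among them peaks in Setd1b exon 11 (0, 0 and 0.406 CD45.2 tags) and at the Nudt1 and Col5a1 promoters (at most 2.43). Just outside, 3431 peaks were named by CD45.2 lists 5 and 6 and by a single CD45.1 list. One of them, in Sall1 intron 1 at chr8:91567510-91567692, had 17.3, 21.9 and 1.09 CD45.1 tags and 161, 146 and 135 CD45.2 tags. Another, near Sall1 at chr8:91916722-91916875, had 9.79, 30.6 and 5.45 against 147, 145 and 112, and a peak in Gxylt1 intron 4 had 8.40, 9.13 and 3.81 against 50.8, 68.9 and 61.7. So a difference larger than that of most members did not suffice for entry.

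The LPS mice were not used by the rule, and each member was looked for in the merged LPS table by overlap of at least 1 bp. An LPS peak overlapped 2837 members (54.78%), against 74.14% of all untreated peaks. Of the 2837, 1791 (63.13%) were named by CD45.2 LPS lists alone, 797 (28.09%) by lists of both populations and 249 (8.78%) by CD45.1 lists alone. Over all untreated peaks with an LPS peak these shares were 14.28%, 72.85% and 12.87%. Most members that were found again were thus listed in host cells alone. When each LPS library's own deposited list was used in place of the record in the merged table, 1987 members were in CD45.2 lists alone, 903 in both, 218 in CD45.1 lists alone and 2071 in neither. Among all 60288 untreated peaks these counts were 7172, 33373, 5493 and 14250.

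Among the 2482 members with more than 10 tags in at least 1 LPS library, 355 (14.3%) were called higher in CD45.2 after LPS (DESeq2, adjusted p under 0.01 and more than 4-fold), against a background of 1.19% of all LPS peaks tested. No member was called higher in CD45.1, where the background was 1.78%. Without a fold limit, at an adjusted p under 0.05, 562 members were higher in CD45.2 (22.64%, background 2.38%) and 3 in CD45.1 (background 4.08%). Of the tested members, 1511 passed the filter through CD45.2 libraries alone, 83 through CD45.1 libraries alone and 888 through both, so these shares are a description of the members that passed. Among the 888, the median log2 difference was -0.37 and 29 were called. With the mouse as a replicate block, since both populations were sorted from the same animals, 229 members were called higher in CD45.2. Leaving out any single library but CD45.2 mouse 3 gave 160 to 218 calls, the fewest without CD45.1 mouse 1.

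Per library, the tested members had median tags of 4.85, 4.57 and 5.66 in CD45.1 mice 1, 2 and 3 and of 12.3, 11.3 and 11 in CD45.2. In 1270 of them (51.17%) the lowest CD45.2 library lay above the highest CD45.1 library, against 13% of all LPS peaks. The median fitted log2 fold change of CD45.1 over CD45.2 was -1.01, against -0.01 over all tested LPS peaks, and 86.62% of the members were below 0. The median was -0.97 when the 436 members with at most 3 tags in every CD45.1 library were set at the limit of 3 tags. Within mice 1, 2 and 3 the median log2 ratio was -1.14, -1.03 and -0.97. These values stand beside those of the untreated mice as a description, since the LPS and untreated tables hold different mice and were normalized separately. Of all 585 LPS peaks called higher in CD45.2, 355 (60.68%) overlapped a host-listed peak and 111 overlapped no untreated peak. For comparison, of all 54953 LPS peaks, called or not, 2836 were matched by overlap to a host-listed peak and 43493 to any untreated peak.

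The resting ratio ordered what was seen after LPS. Of the 1370 members with a ratio of up to 1.5, 48.61% had an LPS peak, and none of 585 tested was called. Of the 630 with a ratio over 8, 61.59% had an LPS peak, and 250 of 352 tested were called. The bins between (1.5 to 2, 2 to 3, 3 to 4 and 4 to 8) held 2 calls of 452 tested, 4 of 521, 14 of 233 and 85 of 339. So called were 1.19% of all LPS peaks and 14.3% of all tested members. Tag levels rose along with the ratio. From the lowest bin to the highest, median CD45.2 tags went from 16.8 to 24.8 at rest and from 9.64 to 17.2 in tested members after LPS. The part of the tag level in the calls was not tested. The share of refound peaks named by CD45.2 LPS lists alone went from 35.74% in the lowest bin to 96.65% in the highest. Calls and fold changes also followed the number of CD45.1 libraries' own lists that hold a member. With 0, 1, 2 or 3 such lists overlapped, 289 of 1087, 34 of 495, 21 of 568 and 11 of 332 tested members were called, and the median log2 fold change was -1.78, -1.08, -0.70 and -0.33. Their median CD45.2 tags after LPS were 13.9, 11.1, 10.2 and 9.17. The share with an LPS peak, however, rose with the number of lists, at 51.41%, 52.45%, 58.48% and 66.67%.

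**Figure D2:**
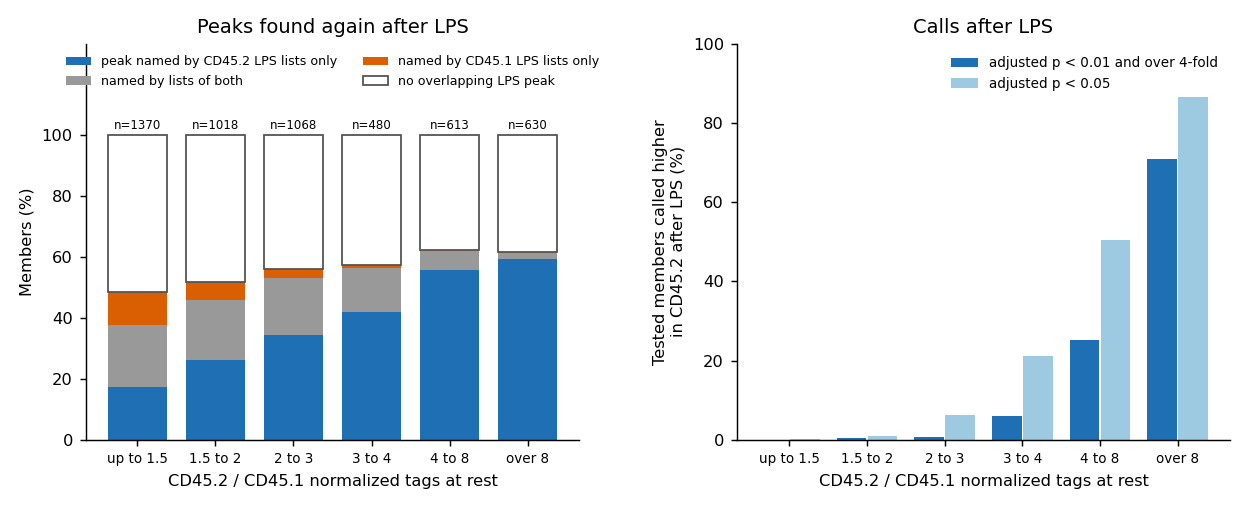
Host-listed peaks binned by their CD45.2 to CD45.1 ratio at rest (x axes): left, the percentage with an LPS peak named by CD45.2 lists alone, by both or by CD45.1 lists alone, or with none; right, the percentage of tested members called higher in CD45.2 after LPS under each threshold. The share with any LPS peak runs from 48.61% to 61.59%. Calls past 4-fold run from 0 of 585 to 250 of 352, against 1.19% of all LPS peaks.

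**Figure D3:**
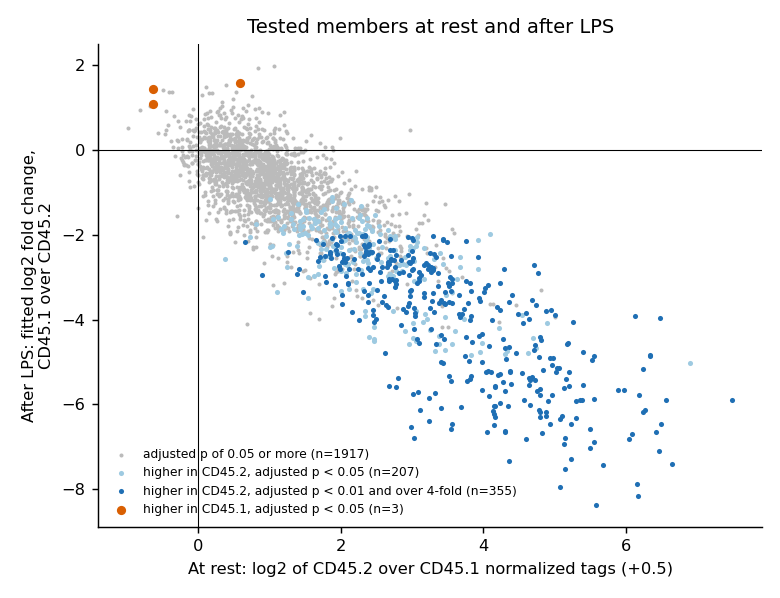
Each point is a tested host-listed peak, with the log2 ratio of CD45.2 to CD45.1 tags at rest (mice 4 to 6) on the x axis and the fitted log2 fold change of CD45.1 over CD45.2 after LPS (mice 1 to 3) on the y axis. The 355 called peaks lie to the lower right, and the 3 orange points above 0 are those higher in CD45.1 (adjusted p under 0.05).

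Sall1 was the nearest start site of 14 members among its 22 peaks, all intergenic and spread over 586 kb. Their summed tags at rest were 67.6, 74.8 and 6.53 in CD45.1 mice 4, 5 and 6 and 420, 473 and 462 in CD45.2, so that the graft library of mouse 6 lay far below the other two. An LPS peak above the filter was found for 5 of them, and all 5 were called higher in CD45.2, with log2 fold changes from -5.76 to -2.46. Over all LPS peaks 1.19% were so called, and over all tested members 14.3%. The distal peak printed above had 19.1, 19.6 and 2.18 CD45.1 against 123, 115 and 110 CD45.2 tags at rest. Its LPS libraries held 1.62, 3.26 and 1.42 CD45.1 tags against 33.3, 29.2 and 23.5 CD45.2 tags (DESeq2 log2 fold change -3.85, SE 0.715, adjusted p = 1.17e-05). At the nearer one, which had 7.46, 6.85 and 0 against 50.8, 48.0 and 56.0 at rest, they held 4.85, 4.57 and 3.77 against 30.7, 30.5 and 15.7 (-2.46, SE 0.581, adjusted p = 0.00115), and the populations did not overlap at either. Its relative Sall3 had 8 members, of which 1 of 2 tested was called.

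Klf12, which encodes a Krüppel-like repressor, also had 14 members of 22 peaks, 13 of them in no CD45.1 library's own list. Their sums at rest were 36.8, 27.4 and 28.3 in CD45.1 against 506, 425 and 463 in CD45.2. After LPS 7 of 10 tested were called and 9 passed an adjusted p of 0.05. These counts stand beside 1.19% and 2.38% of all LPS peaks and 14.3% and 22.64% of all tested members. The printed Klf12 peak had 4.2, 3.65 and 3.27 against 96.7, 86.3 and 74.7 tags at rest and 4.04, 3.91 and 0.944 against 44.7, 35.8 and 27.0 after LPS (DESeq2 log2 fold change -3.59, SE 0.614, adjusted p = 1.37e-06). At both times every CD45.2 library lay above every CD45.1 library.

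In the list of 43 homeostatic microglia genes, 61 of 445 peaks were host-listed (13.71%, against 8.59% of all untreated peaks), and 24 (5.39%) were named by at least 2 CD45.1 lists and no CD45.2 list, against 6.09% of all. The 61 lay at 15 genes, with 14 each at Sall1 and Klf12 and 8 at Sall3. No member was assigned to Tmem119, Cx3cr1 or Csf1r, which mark microglia. Of 32 tested, 16 were called higher in CD45.2 after LPS (median log2 fold change -2.36), beside 1.19% of all LPS peaks and 14.3% of all tested members, and none in CD45.1. The list's values rested on a few genes. Without Klf12, Sall1 and Nav3, the 3 with the most members, 24 of 384 peaks (6.25%) were host-listed and 2 of 10 tested were called. A gene's place in the list did not fix its values. A Mef2a promoter peak (a MADS-box factor) had 71.8, 55.7 and 95.8 CD45.1 and 63.1, 71.2 and 75.5 CD45.2 tags at rest and a log2 fold change of -0.04 after LPS (SE 0.416, adjusted p = 0.984). P2ry12, the purinergic receptor that microglia use to sense nucleotides, had 1 member of 6 peaks, which was not tested after LPS.

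The other 8 of the 10 genes with the most members have varied roles. Celf4, an RNA-binding protein gene known from neurons, had 14 members of 24 peaks, Csmd3 10 of 20, and Khdrbs3, which encodes a STAR family RNA-binding protein, 9 of 11. Magi1 (a scaffold of cell junctions) and Nav3 (neuron navigator) each had 9 of 17, Rxrg (retinoid X receptor gamma) 9 of 11, and the unannotated 4933430N04Rik 10 of 12. Calls higher in CD45.2 after LPS were 3 of 8 tested at Celf4, 4 of 6 at Csmd3, 3 of 6 at Khdrbs3, 4 of 7 at Magi1, 2 of 7 at Nav3, 5 of 8 at Rxrg and 2 of 4 at 4933430N04Rik. Over all LPS peaks 1.19% were so called, and over all tested members 14.3%. Elmo1, which acts with DOCK proteins in engulfment, differed in kind. It had 12 members of 46 peaks, with 130, 140 and 101 summed CD45.1 tags against 188, 284 and 263 CD45.2 tags at rest, and none of its 3 tested members was called.

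The Rxrg and Khdrbs3 peaks, chosen after values were seen, had fewer CD45.1 tags at rest than the median member (9.21, with 19.6 in CD45.2). The printed Rxrg peak held no CD45.1 tag in mice 4, 5 and 6 and 38.5, 48.4 and 32.5 CD45.2 tags, and after LPS 0.809, 2.61 and 0 against 26.3, 32.3 and 26.7 (DESeq2 log2 fold change -4.84, SE 0.928, adjusted p = 2.4e-05). The Khdrbs3 promoter had 8.86, 8.67 and 1.09 against 77.0, 65.0 and 55.6 at rest, and 0.809, 5.87 and 2.83 against 52.5, 39.7 and 24.3 after LPS (-3.82, SE 0.641, adjusted p = 7.91e-07). In both, the populations were apart in every library. Across genes the members were dispersed, since 3602 of 16195 nearest genes had at least 1 member, 2673 had exactly 1 and 67 had 5 or more.

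In the list of 31 genes of the response to LPS, 12 of 220 peaks (5.45%, against 8.59% of all untreated peaks) were members, and 29 (13.18%, against 6.09%) were named by CD45.1 lists alone. After LPS 5 of 8 tested members were called higher in CD45.2, all at Marco, beside 1.19% of all LPS peaks and 14.3% of all tested members. Marco encodes a scavenger receptor for bacteria, and all 6 of its untreated peaks were host-listed. At the printed Marco peak the resting libraries held 1.40, 1.83 and 0 CD45.1 tags against 58.2, 54.6 and 51.1, and after LPS no CD45.1 tag against 28.0, 22.7 and 18.1 (DESeq2 adjusted p = 8.85e-06). Summed over the 5 tested Marco members, LPS libraries held 2.43, 2.61 and 0.472 CD45.1 tags and 126, 104 and 135 CD45.2 tags. The cytokine and signalling genes Il12b, Nfkbiz and Tnfaip3 had 1 member each and Il1r2, a decoy receptor for interleukin 1, had 3, of which 1 of 2 tested passed an adjusted p of 0.05.

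Genes of engrafted macrophages and disease-associated microglia gave 10 members of 129 peaks (7.75%, against 8.59% of all), beside 30 (23.26%, against 6.09%) named by CD45.1 lists alone. Cd9, a tetraspanin, had 6 of the 10, Clec7a (Dectin-1) 2, and Ccr2 and Itgax (CD11c) 1 each. None of 8 tested was called (1.19% of all LPS peaks were), and 1 passed an adjusted p of 0.05, a Cd9 peak with 8.09, 7.83 and 0.944 CD45.1 and 21, 23.5 and 16.9 CD45.2 tags after LPS (DESeq2 log2 fold change -1.86, SE 0.593, adjusted p = 0.0308). In the list of 51 transcription factors 76 of 756 peaks (10.05%) were members at 24 genes, and 58 (7.67%) were named by CD45.1 lists alone. Of 34 tested members 14 were called, 7 at Klf12, 5 at Sall1 and 1 at Sall3 among them, beside 1.19% of all LPS peaks and 14.3% of all tested members. These 3 genes are also in the homeostatic list, and they gave 14, 14 and 8 of the 76 members.

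The list of adhesion, guidance and matrix genes had 35 host-listed peaks of 170 (20.59%, against 8.59% of all) at 13 genes, beside 25 (14.71%, against 6.09%) named by CD45.1 lists alone. It also holds Slc1a3, a glutamate transporter gene, which gave 8 of these 35 members among 19 peaks. After LPS 6 of 18 tested were called higher in CD45.2 and 12 passed an adjusted p of 0.05, beside 1.19% and 2.38% of all LPS peaks and 14.3% and 22.64% of all tested members. Slc1a3 gave 4 of the 18 tested, none of them called, and 3 of the 12. Ptprm, a receptor tyrosine phosphatase of cell contacts, had 8 members, and 3 of 4 tested were called. A peak near Epha4, an ephrin receptor, had 0, 1.83 and 3.27 against 81.1, 64.6 and 84.4 tags at rest and 0, 3.26 and 0.944 against 69.2, 32.7 and 46.0 after LPS (DESeq2 log2 fold change -5.61, SE 0.903, adjusted p = 2.16e-07).

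Slc1a3, the glutamate transporter GLAST of astrocytes, had 8 members. The peak in its intron 7 had 5.66, 7.83 and 9.44 CD45.1 and 26.3, 31.8 and 31.5 CD45.2 tags after LPS (DESeq2 log2 fold change -1.99, SE 0.477, adjusted p = 0.00144), just short of the 4-fold limit. Of 10 astrocyte markers 3 had a promoter peak at rest, namely Slc1a3 itself, Aldh1l1 and Fgfr3, whose promoter peak is a member. These held 24 to 29.2 summed tags in CD45.1 and 51.9 to 86.8 in CD45.2. After LPS the 3 with a promoter peak were Aldh1l1, Fgfr3 and Gja1, with 8.89 to 20.2 and 17.4 to 34.2 summed tags. No promoter peak was seen at Gfap, Aqp4 or Aldoc under either condition. Other astrocytic members lay at Slc1a2 (3), Aldh1l1 and Fgfr3 (1 each). The 1 endothelial marker of 8 with a promoter peak had 12.5 to 37.8 tags in CD45.1 against 48.4 to 66.4 in CD45.2 at rest and overlapping ranges of 9.91 to 24.1 and 12.8 to 24.4 after LPS, and members lay at Cdh5 (5), Flt1 and Pecam1. Promoter tags of neuronal markers went the other way, with 44.3 to 74.6 in CD45.1 and 4.92 to 13.2 in CD45.2 at rest (2 of 10 with a peak) and 17.4 to 36.8 against 12.6 to 15.8 after LPS (3 of 10), while Snap25 and Syt1 had 2 members each. The part of other cells in the members was not tested. The microglial markers had promoter peaks at 9 of 10 genes, with 600 to 776 summed tags in CD45.1 and 785 to 882 in CD45.2 at rest. The Sall3 promoter peak among them is a member. After LPS the ranges overlapped, at 181 to 236 and 225 to 250. Markers of bone marrow-derived brain macrophages (5 of 8 with a promoter peak) had 309 to 322 tags in CD45.1 and 51.6 to 66.5 in CD45.2 at rest. Oligodendrocyte markers (2 of 10) had overlapping ranges of 65.9 to 82.6 and 48.4 to 66.4.

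**Figure D4:**
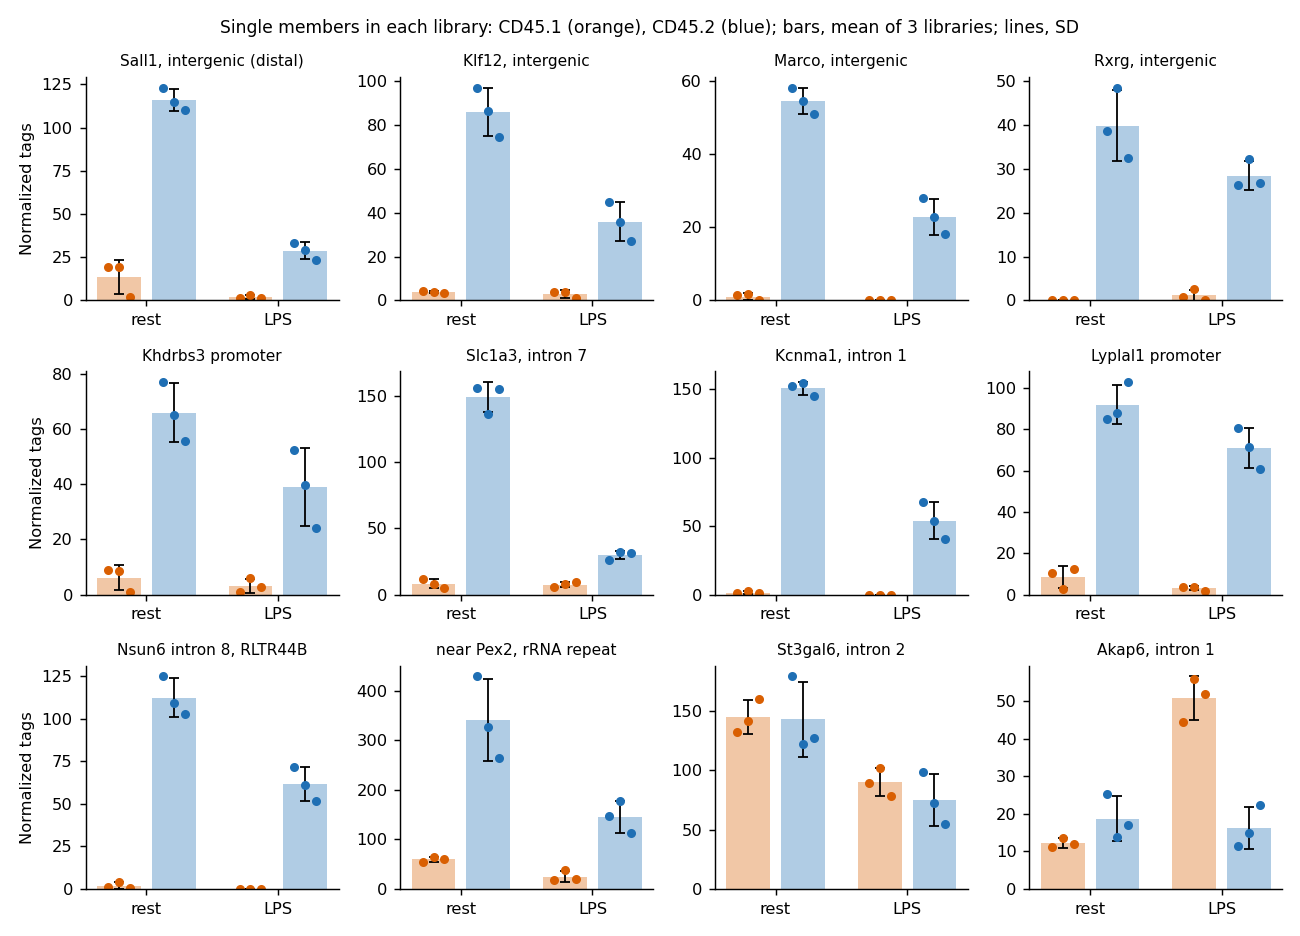
Normalized tags of 12 host-listed peaks in each library, CD45.1 in orange and CD45.2 in blue, at rest (mice 4 to 6) and after LPS (mice 1 to 3); bars are means of 3 libraries and lines the SD, and each panel has its own y axis from 0. In 10 panels CD45.2 lies above CD45.1 in every library, St3gal6 shows overlapping groups, and Akap6, whose peaks share 57 bp, shows CD45.1 above CD45.2 after LPS alone.

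The members with the smallest adjusted p after LPS were in large part not at these genes. The Garem1 promoter (an adaptor of EGF receptor signalling) came first, with 13.7, 11.7 and 13.2 CD45.1 and 212, 167 and 91.4 CD45.2 tags (DESeq2 log2 fold change -3.57, SE 0.352, adjusted p = 5.98e-20). The Lyplal1 promoter, of a lysophospholipase-like gene, at chr1:187941141-187941257 had 10.7, 2.74 and 12.5 against 85.2, 87.9 and 103 at rest and 3.64, 3.91 and 1.89 against 80.6, 71.5 and 60.9 after LPS (-4.57, SE 0.557, adjusted p = 4.99e-13). An intron 1 peak of the non-coding 4930511A08Rik had 2.43, 0 and 1.89 against 104, 79.8 and 43.6 after LPS (-5.53, SE 0.729, adjusted p = 4.23e-11). Adamts1 intron 1 (a secreted metalloprotease) had 17, 11.7 and 7.55 against 109, 54.5 and 71.5 (-2.64, SE 0.382, adjusted p = 4.31e-09). A peak in a 3′ UTR at chr9:123371062-123371156, with Limd1 as the nearest start site, had 10.9, 13 and 5.66 against 85.8, 93.3 and 74.8 (-3.10, SE 0.368, adjusted p = 1.03e-13). The groups did not overlap at any of these 5 peaks. The Garem1 and Limd1 members overlapped all 3 CD45.1 libraries' own lists at rest and the Lyplal1 member 1, while those of 4930511A08Rik and Adamts1 overlapped none. At Garem1 all 3 CD45.1 LPS lists also named the LPS peak, and the reciprocal overlap fell short of 50%.

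Repeats made up the other 5 of these 10 peaks. Those near Pex2 and in introns of Filip1l and Ccdc3 lie in LSU-rRNA_Hsa, a copy of large-subunit ribosomal RNA, and those in Nsun6 intron 8 and near Ddx10 lie in RLTR44B, a long terminal repeat of an ERVK retrovirus. LSU-rRNA_Hsa held 37 untreated peaks, of which 16 (43.24%) were members, and 6 of 12 tested were called. Summed over the 16, resting CD45.1 libraries held 317, 320 and 370 tags and CD45.2 libraries 2122, 1418 and 1066. Over the 12 tested after LPS the sums were 64.7, 122 and 69.8 against 448, 557 and 389. In CD45.2 at rest the sum was highest in mouse 4, the library with the smallest share of its tags in peaks, and the excess over CD45.1 was present in each mouse. RLTR44B held 10 untreated peaks, of which 6 were members, and all 6 were tested and called, with sums of 10.9, 15.7 and 14.2 CD45.1 and 302, 240 and 203 CD45.2 tags after LPS. Over all LPS peaks 1.19% were so called, and over all tested members 14.3%. The peak near Pex2, a peroxisome gene, had 17, 37.8 and 20.3 against 147, 177 and 113 tags after LPS (-2.58, SE 0.294, adjusted p = 6.05e-15), and those of Filip1l, Ccdc3 and Ddx10 had log2 fold changes of -2.46, -3.17 and -3.48 (SE 0.324, 0.447 and 0.513). At Nsun6, an RNA methyltransferase gene, no CD45.1 tag was found after LPS against 71.8, 61.1 and 51.7 (adjusted p = 5.43e-09). The Pex2 and Ccdc3 members overlapped all 3 CD45.1 libraries' own lists at rest and the Filip1l member 2, while those of Nsun6 and Ddx10 overlapped none. The handling of reads that fit several copies is not given in the sources used here, so which copy was open is uncertain at these peaks. Repeats were annotated in 773 members (14.93%), against 11.35% of all untreated peaks.

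Kcnma1 intron 1, in the gene of the calcium-activated BK potassium channel, lies outside repeats. It held 0.933, 2.74 and 1.09 CD45.1 and 152, 154 and 145 CD45.2 tags at rest. After LPS no CD45.1 library held a tag there, while CD45.2 libraries held 67.4, 53.6 and 40.7 (DESeq2 adjusted p = 1.92e-08). It was chosen after its values had been seen.

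In 3 members CD45.1 exceeded CD45.2 after LPS (adjusted p under 0.05). In Akap6 intron 1, an A-kinase anchoring protein gene, resting libraries held 11.2, 13.7 and 12.0 CD45.1 and 25.4, 13.9 and 17 CD45.2 tags, and LPS libraries 44.5, 56.1 and 51.9 against 11.4, 14.8 and 22.3 (DESeq2 log2 fold change 1.57, SE 0.361, adjusted p = 0.000746). The LPS peak, 254 bp wide, shared 57 bp with the member, so the values at rest and after LPS are largely from neighbouring DNA. The member overlapped all 3 CD45.1 libraries' own lists at rest. G530011O06Rik (1.43, SE 0.40, adjusted p = 0.00897) and Rtcb intron 3, of the tRNA ligase gene (1.07, SE 0.314, adjusted p = 0.015), had more CD45.1 than CD45.2 tags at rest already, with 44.3, 29.7 and 40.8 against 27.9, 24.4 and 21.5 at the former. With the mouse as a replicate block the adjusted p was 0.00888 at Akap6, 0.0837 at G530011O06Rik and 0.134 at Rtcb, so the paired fit ended the calls of the latter pair. The Rtcb peaks shared 50 bp.

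By position the members were mostly distal. Promoters held 410 (7.92%), introns 48.46% and intergenic DNA 35.97%, against 22.17%, 38.86% and 32.62% of all untreated peaks. The 3673 peaks that at least 2 CD45.1 lists and no CD45.2 list named had a like share of promoters (7.46%) and more intergenic peaks (44.49%). The median distance to the nearest start site was 19321 bp in the members and 10280 bp over all peaks, and the median width 117 and 132 bp. Median GC was 51% in the members, 52% over all and 45% in the CD45.1-listed peaks. The 8 promoter members with the most CD45.2 tags were those of Lcorl, Cblb, Egf, 3110043O21Rik, Hpcal1, Mir6236, Garem1 and Gmfg. At all but Mir6236 and Garem1 the resting ratio was 0.982 to 1.32, and none of the 4 of these tested after LPS passed an adjusted p of 0.05. Near Ptprc, the gene of CD45 itself, the share of members was like that elsewhere, with 82 of 1068 peaks within 25 Mb (7.68%) and 8.61% of the others.

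Motifs were counted on both strands in 200 bp around each peak's centre. PU.1 was found in 9.94% of the members, 9.45% of all untreated peaks and 10.48% of the CD45.1-listed peaks. Outside promoters, where most members lie, it was in 10.46% of the members and 11.17% of all peaks, so the order turned. The MAF motif was in 6.43%, 5.38% and 6.26% of the 3 sets, and outside promoters in 6.69%, 6.09% and 6.35%. Among members with a resting ratio over 4 it was in 9.65%. AP-1 (TGANTCA) was in 6.53% of the members, 8.11% of all and 14.40% of the CD45.1-listed peaks. CEBP (4.5%, 5.12% and 8.49%), RUNX (4.58%, 5.65% and 9.56%), IRF (3.03%, 3.85% and 6.64%), PU.1-IRF (5.29%, 5.75% and 9.26%) and MEF2 (1.58%, 1.98% and 4.90%) followed the same order. CTCF, the insulator protein, ran in the opposite order, with 6.47%, 5.07% and 1.61%. KLF (CCACACC) was in 4.38%, 4.68% and 4.14%, the E-box CACGTG in 4.34%, 5.65% and 4.47%, NF-kappaB in 3.55%, 3.35% and 2.48%, and SMAD (GTCTAGAC) in 0.29%, 0.28% and 0.44%.

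Matches differed among the members themselves. CTCF was in 2.89% of those that no CD45.1 library's own list holds and in 6.56%, 9.98% and 14.84% of those that 1, 2 or 3 such lists hold, while it was in 1.21% of members with a resting ratio over 4. The MAF motif was in 7.32%, 5.54%, 6.01% and 5.13% in the same order. Among the 355 members called higher in CD45.2 after LPS, 10.14% held the MAF motif, 12.96% PU.1, 11.83% AP-1, 8.17% the E-box and 1.69% CTCF. In tested members that missed an adjusted p of 0.05 these shares were 5.84%, 9.02%, 9.18%, 4.80% and 7.98%. A match describes the letters in the window and does not show binding.

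**Figure D5:**
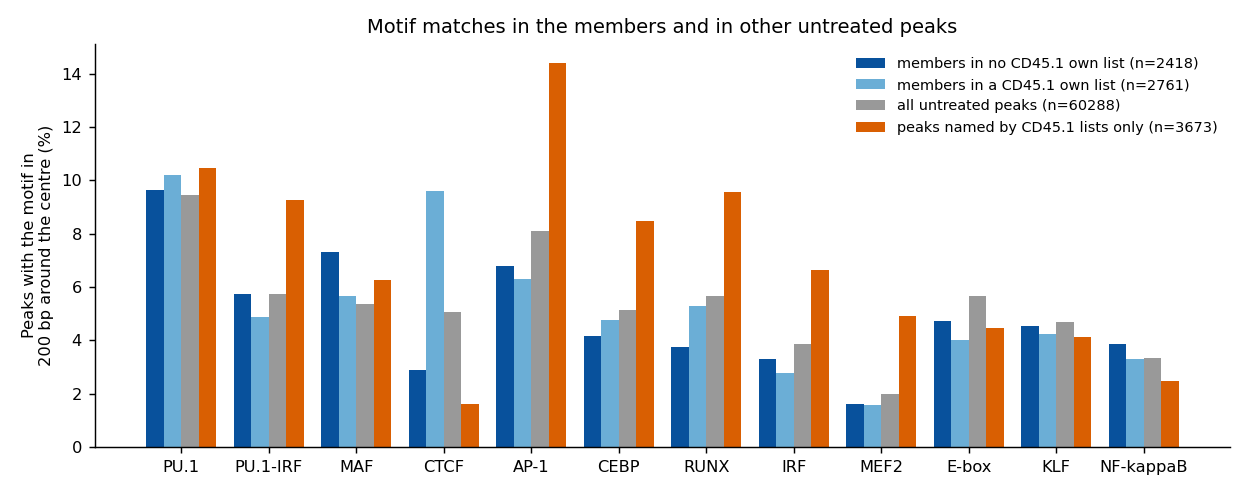
Percentage of peaks with each motif in the 200 bp around the peak centre, for host-listed peaks in no CD45.1 library's own list, those in at least 1, all untreated peaks, and peaks named by CD45.1 lists alone. AP-1 is highest in the CD45.1-listed peaks (14.40%), and CTCF differs most between both kinds of host-listed peaks.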

How the data were processed

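Tags were counted by the authors with HOMER in 12 libraries after alignment to mm9; the submitters' processing notes also name bcl2fastq 2.17.1.14, Bowtie2 and Picard 1.108. The values the authors deposited in the merged tables are unnormalized tags, used here as estimated counts, in steps of 0.5 tag and rounded before testing. Signal per peak in each library's own deposited list (a HOMER tag score) was used only for coordinates. A shift of read ends for the transposase is not given in the sources used here; an unshifted end moves a tag by a few bases. Total tags ranged from 8392877.5 to 9107770 in untreated and from 2966364 to 6556594.5 in LPS libraries, so LPS values carry more counting error. Tags in a library's own peaks were 9.30 to 27.24% of the total at rest, lowest in CD45.2 mouse 4. They were 27.24% and 25.99% in CD45.2 mice 5 and 6, whose lists the rule required. In CD45.1 mice 4, 5 and 6, whose lists it excluded, they were 22.0%, 22.5% and 17.65%. The deposited lists held 69080 and 66795 distinct peaks in the former and 58865, 59522 and 49553 in the latter. The part of this difference in the choice of members was not tested.

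The members and gene lists were chosen with earlier results of these data known. The LPS peaks in which any of the 6 libraries had more than 10 tags (49180 of 54953) were fitted with DESeq2 1.42.0 in R 4.3.3, CD45.1 against CD45.2, with Benjamini-Hochberg adjustment over all of them. The fold limit and 0.01 follow the study, which does not say that its p was adjusted. edgeR 4.0.16, another scaling, other filters, a mouse block, stricter overlaps and leaving out each library were alternatives. On simulated LPS counts (44446 peaks, 200 changed) the fit recovered 95 of 100 changed 4-fold and 100 of 100 changed 8-fold at an adjusted p under 0.05, with 2 false calls. The changed peaks were drawn from those with a mean over 20 normalized tags. The tested members had LPS medians of 11.5 in CD45.2 and 5.43 in CD45.1, so recovery at most of them was not measured. Mouse numbers pair the populations because the series states that both were sorted from the same animal; the same-number correlations of deviations were -0.0542, 0.0549 and 0.153 after LPS and 0.0769, 0.0843 and 0.0972 at rest. Each mouse is 1 library per population.

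Peaks named were the 10 members with the smallest adjusted p after LPS, the 10 nearest genes with the most members, members of the lists (all of a list with 10 or fewer, otherwise the 5 with the most CD45.2 tags), the 3 at each edge of the rule and the 8 promoter members with the most CD45.2 tags. The Kcnma1, Rxrg, Khdrbs3, nearer Sall1, Akap6, G530011O06Rik and Rtcb peaks, single genes of a list, the list without 3 of its genes and the repeat families were added after values were seen. Gene names and positions are HOMER's nearest start site and region as deposited. The reference genome, NCBIM37, is the same build, and sequences were read from it.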

Additional observations from a re-analysis of the deposited data

Results flagged for a closer look

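The Akap6 intron 1 peak stood out because its populations changed order between conditions. It had fewer CD45.1 than CD45.2 tags at rest in each of mice 4 to 6 and more after LPS in each of mice 1 to 3 (DESeq2 log2 fold change 1.57, SE 0.361, adjusted p = 0.000746). The LPS peak shared 57 of its 254 bp with the resting peak and did not reach the 50% reciprocal overlap, so the values come in large part from different stretches of the intron. The difference between rest and LPS was not tested, since the mice differ and the tables were normalized separately.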

How the results depend on the processing

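Counts of calls depended on the settings more than directions did. Calls higher in CD45.2 after LPS numbered 355, 490 with edgeR, 229 with the mouse as replicate block, 74 with a mean count of at least 20 (308 members tested) and 160 to 238 on leaving out 1 library. At an adjusted p under 0.05 they numbered 562, 824 with edgeR, 105 with that mean, 347 in members named by all 3 CD45.2 lists and 327 to 400 on leaving out 1 library. Members higher in CD45.1 numbered 3, 10 with edgeR, 7 with size factors from total tags, 1 with the paired fit or a reciprocal overlap of 50%, and 1 to 3 on leaving out 1 library; past 4-fold they numbered 0 in every fit. The median log2 fold change of -1.01 was -0.873 under total-tag scaling, which moved the median of all peaks to 0.14, -0.604 with the higher mean, -1.954 in members of all 3 lists and -1.785 in members in no CD45.1 library's own list, and ran from -1.104 to -1.010 on leaving out 1 library. In members of all 3 lists and in members in no CD45.1 library's own list, an LPS peak was found for 740 and 1243, named by CD45.2 lists alone for 535 and 923, with resting ratios of 4.19 and 3.37, promoter shares of 11.67% and 9.68% and median GC of 52% and 51.75%. Introns held 46.56% of the former and intergenic DNA 33.91% of the latter. The set without CD45.1 library lists was chosen after seeing the data. The causes were not tested. Of 143 pairs of a named peak and an alternative, 133 stayed on their side of the threshold and 10 lost it, at G530011O06Rik and Rtcb. LPS libraries held at most 6556594.5 tags, 2342 members had no LPS peak and 355 had too few tags to test.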
